A study of Homo sapiens with 7 samples.

Results

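The miR-23/27/24 clusters are a pair of paralogous groups of microRNA genes, and 6 of their mature microRNAs were followed here among the 480 mature names of the deposited table. They were chosen by name: hsa-miR-23a-3p, hsa-miR-23b-3p, hsa-miR-27a-3p, hsa-miR-27b-3p, hsa-miR-27b-5p and hsa-miR-24-3p, written without the species prefix from here on where no confusion arises. Small RNA had been sequenced from 7 captures, all made in the human melanoma cell line A375, to find the microRNAs bound to the X1 isoform of BRAF, a kinase of the MAPK pathway. In 3 captures the 3' UTR of this isoform was pulled down with the ODD probe set, in 3 with the EVEN probe set, and in 1 the probes were scrambled. No drug treatment is labelled, and all 7 captures came from cells taken 24 h after seeding and crosslinked with 1% formaldehyde for 10 min. ODD and EVEN captures together are called X1 probes here. The design text calls the ODD and EVEN captures independent, but nothing in the labels says that each came from its own culture, so p-values measure the spread between these libraries, which may be technical.

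A microRNA guides an Argonaute protein to messenger RNAs, mostly through its seed, bases 2 to 8 counted from the 5' end. The miR-23, miR-27 and miR-24 genes lie next to each other in each cluster and can be cut from 1 primary transcript. miR-27 is known for restraining adipocyte differentiation through PPARG and for a part in angiogenesis. miR-24 is known for limiting cell proliferation through cell cycle genes. After the hairpin is cut, 1 arm is usually loaded into Argonaute and the other, the passenger, is mostly degraded.

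The mature sequences are shown because they decide which members can share targets and which can share reads. They come from RefSeq (GRCh38.p14), where 406 of the 480 names matched, all 6 members among them. The capitals mark the seed, 5' to 3'.
miR-23a-3p: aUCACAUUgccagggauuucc
miR-23b-3p: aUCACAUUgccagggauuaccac
miR-27a-3p: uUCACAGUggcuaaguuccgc
miR-27b-3p: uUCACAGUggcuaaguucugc
miR-27b-5p: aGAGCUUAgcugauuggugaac
miR-24-3p: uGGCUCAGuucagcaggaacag

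The a and b paralogs have the same seed. Over their first 21 bases miR-23a-3p and miR-23b-3p differ by U19A, and miR-23b-3p is 2 bases longer, with 23 bases against 21. miR-27a-3p and miR-27b-3p, both of 21 bases, differ by C19U, with positions counted from 1 at the 5' end and the a paralog's base first. Since 1 base separates each pair, the division of reads between paralogs depends on how the authors aligned and counted them, a step for which the sources used here give no rule. The seeds of the miR-23 and miR-27 pairs differ by U7G, miR-23 first. No other mature name of the table with a RefSeq match had the miR-23, miR-27, miR-24 or miR-27b-5p seed.

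The b cluster (MIR23B, MIR27B and MIR24-1) spans 881 bases at chr9:95085208-95086088 on the plus strand of GRCh38.p14, inside the bounds of AOPEP, a protein-coding gene. The a cluster (MIR23A, MIR27A and MIR24-2) spans 373 bases at chr19:13836287-13836659 on the minus strand and overlaps MIR23AHG, a long non-coding RNA gene. The annotation used here has no exons, so introns and exons of these hosts were not assigned. miR-24-3p has the same 22 bases at chr9:95086064-95086085 and chr19:13836289-13836310. The 1 row used for it carries the MIR24-1 hairpin name, but its reads cannot be assigned to either cluster.

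Depth limits every value below. The deposited values are RPM, reads scaled to a fixed total of 1e+06 per library, and the libraries held 4049 to 35508 reads over all rows, the scrambled library 4647. One read equals 28.2 RPM in ODD replicate 2, where depth was highest, and 215 RPM with scrambled probes. The 95% intervals given for single libraries are exact ones (Clopper-Pearson). PCR reads that carry no molecular identifiers are not independent molecules, and these intervals and the floors used below therefore cover counting error alone. In these bulk captures of 1 cell line, fewer cells and less microRNA per cell cannot be told apart, and RPM shows a share of each library, not an amount captured.

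miR-27b-3p dominated the group. The 6 members took 2.58% ± 0.145 of the RPM total with X1 probes (SD, n = 6) and 2.73% with scrambled probes. This total runs over all 498 rows, repeated rows of a name included. One row per name held 3479 of the 4647 scrambled reads and 25679 of the 35508 reads of ODD replicate 2. On that basis each share would be larger. miR-27b-3p alone made up 79.3% to 84.3% of the members' RPM over the 7 libraries. It stood in 9th place of the 480 names both by mean RPM with X1 probes and with scrambled probes.

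hsa-miR-27b-3p, the main arm of the b cluster's miR-27 hairpin, had 18850, 20587 and 21487 RPM in ODD replicates 1 to 3, 20986, 22150 and 22656 RPM in EVEN replicates 1 to 3, and 22810 RPM in the scrambled library. These values rest on 87 to 731 reads per X1-probe library and 106 scrambled reads. All 6 X1-probe libraries lay below the scrambled one, and all lay inside its exact interval of 18712 to 27522 RPM. The coefficient of variation over the X1-probe libraries was 6.36%, the lowest of the 68 microRNAs with at least 1000 RPM on average, whose median was 23.2%. Counting error adds more to this measure where reads are fewer, so the rank depends on read number too. The chi-square of the miR-27b-3p reads per degree of freedom was 0.84 over these libraries, where counting error alone gives about 1.

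hsa-miR-27a-3p, its paralog from the a cluster, had 1478, 2450 and 1729 RPM in ODD replicates 1 to 3, 1830, 2208 and 2517 RPM in EVEN replicates 1 to 3, and 1291 RPM, 6 reads, in the scrambled library. All 6 X1-probe libraries were above the scrambled value and none left its exact interval of 474 to 2808 RPM. ODD and EVEN libraries overlapped.

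hsa-miR-23a-3p, of the a cluster, had 1201, 958 and 1235 RPM in ODD replicates 1 to 3, 1507, 966 and 629 RPM in EVEN replicates 1 to 3, and 861 RPM, 4 reads, in the scrambled library. The EVEN libraries held both the highest and the lowest value, with all ODD libraries between them. Of the X1-probe libraries 5 were above the scrambled value.

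hsa-miR-23b-3p, of the b cluster, had 370, 676 and 988 RPM in ODD replicates 1 to 3, 538, 552 and 420 RPM in EVEN replicates 1 to 3, and 430 RPM, 2 reads, in the scrambled library. The ODD libraries spread around the EVEN libraries on both sides. The X1-probe values rest on 47 reads in all, 24 of them in ODD replicate 2.

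hsa-miR-24-3p, made by both clusters, had 1201, 1155 and 1235 RPM in ODD replicates 1 to 3, 646, 414 and 1049 RPM in EVEN replicates 1 to 3, and 1506 RPM, 7 reads, in the scrambled library. All 3 ODD libraries were above all 3 EVEN libraries, and the scrambled library was above all 6. It had 5 or 6 reads in each EVEN library.

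hsa-miR-27b-5p, the passenger arm of the miR-27b hairpin, had 5 reads (141 RPM) in ODD replicate 2, 2 reads (215 RPM) in EVEN replicate 1 and 0 reads in the other four X1-probe libraries, against 2 reads (430 RPM) in the scrambled library. With 0 reads, 3 reads per library is the floor, and the floor was 207 RPM in EVEN replicate 2, 277 RPM in ODD replicate 1, 629 RPM in EVEN replicate 3 and 741 RPM in ODD replicate 3. Both floors of replicate 3 are above the scrambled level of 430 RPM, so a difference there was not detectable at this depth. The scrambled level is itself under the scrambled floor of 646 RPM, with an exact interval of 52.1 to 1554 RPM. A difference from it was therefore not resolved in the other libraries either.

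**Figure D1:**
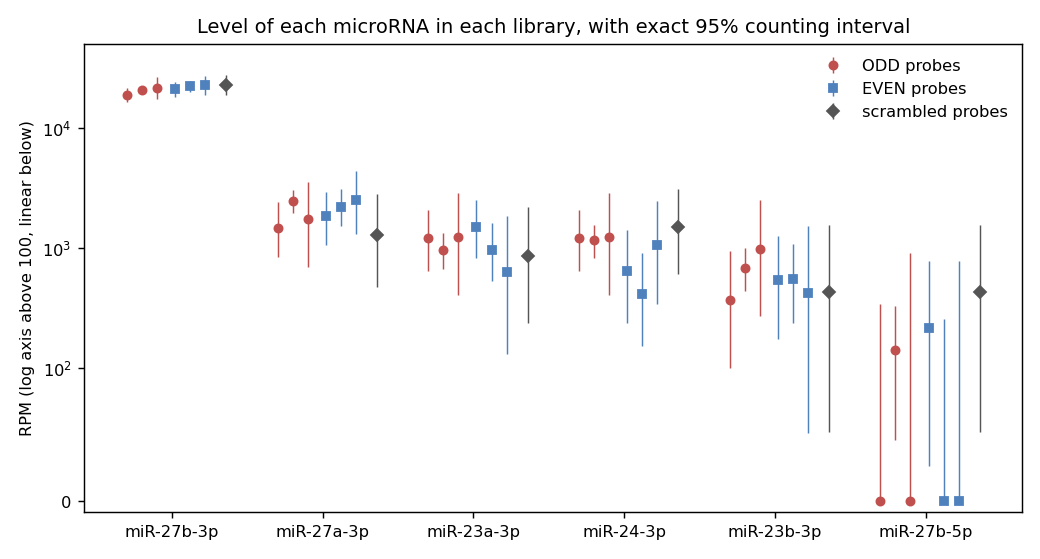
RPM of the 6 members in each library, on an axis that is logarithmic above 100 RPM and linear below, with exact 95% counting intervals as bars; circles are ODD, squares EVEN and diamonds the scrambled library. miR-27b-3p sits between 18850 and 22810 RPM in all 7 libraries, and miR-24-3p is the member whose ODD points all lie above its EVEN points.

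The first place was the same in every library. miR-27b-3p exceeded miR-27a-3p in 7 of 7 libraries, and the mean over all libraries was 11.1-fold higher. miR-27a-3p exceeded miR-23a-3p in 7 of 7 libraries, with 1929 ± 475 and 1051 ± 287 RPM (SD, n = 7), while in the scrambled library miR-24-3p (1506 RPM) stood above miR-27a-3p (1291 RPM). miR-23a-3p and miR-24-3p, at 1051 ± 287 and 1029 ± 374 RPM (SD, n = 7), did not differ beyond their spread. miR-23a-3p was higher in 2 libraries, equal in 2 and lower in 3. miR-24-3p exceeded miR-23b-3p, at 568 ± 212 RPM (SD, n = 7), in 6 of 7 libraries. miR-27b-5p came last, equal to miR-23b-3p in 1 library and below it in 6. Reads of mature microRNAs were not divided by length, since a read covers a whole microRNA of 21 to 23 bases.

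The b cluster's miR-27b-3p had 21.8 to 54.0 times the RPM of its neighbour miR-23b-3p over the 7 libraries. In the a cluster miR-27a-3p had 1.21 to 4 times the RPM of its neighbour miR-23a-3p. The pairs were ordered in opposite ways, since the b paralog led for miR-27 and the a paralog for miR-23. miR-27b-3p had 8.4 to 17.7 times the RPM of miR-27a-3p, and miR-23b-3p was exceeded by miR-23a-3p by 1.25 to 3.25 times, each over the 7 libraries.

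The first comparison was between X1 probes and scrambled probes, the background of the capture. No member passed. Differences were fitted with limma on log2(RPM + 10) over the 242 microRNAs that reached 10 RPM in at least 3 libraries, all 6 members among them, at an adjusted p of 0.05 by Benjamini-Hochberg. Of the 242, 0.826% were called, 2 higher and 0 lower, and 8.68% had an unadjusted p under 0.05. None of the 6 members was called, and 0 had an unadjusted p under 0.05. The median log2 difference of the members was 0.082, with 3 above 0 and 3 below, and that of all tested was 0.096. With a single scrambled library, its spread could not be measured and was taken from the ODD and EVEN groups.

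miR-27b-3p averaged 21119 ± 1342 RPM with X1 probes (SD, n = 6) and had 22810 RPM with scrambled probes. Its log2 difference was -0.11 with an SE of 0.29 (limma, 95% interval -0.70 to 0.47, adjusted p = 0.836). The interval is the narrowest of the 6 and bounds the difference in share at less than a doubling in either direction. Its sign turned under quantile scaling, to 0.027.

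miR-27a-3p averaged 2035 ± 420 RPM with X1 probes (SD, n = 6) against 1291 RPM. The log2 difference was 0.63 with an SE of 0.50 (limma, 95% interval -0.39 to 1.64, adjusted p = 0.673, higher in 6 of 6 libraries). At the X1-probe mean, 9.46 scrambled reads would be counted, against 6 found. miR-24-3p averaged 950 ± 339 RPM with X1 probes (SD, n = 6) against 1506 RPM. Its log2 difference was -0.76 with an SE of 0.67 (limma, 95% interval -2.13 to 0.61, adjusted p = 0.673, lower in 6 of 6 libraries). The members thus stood on both sides of the scrambled library, and the 95% interval of every member held 0.

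For the miR-23 pair, with 4 and 2 scrambled reads, no difference from the scrambled level was resolved. The scrambled value of miR-23b-3p is under the scrambled floor of 3 reads, 646 RPM. miR-23a-3p averaged 1083 ± 301 RPM with X1 probes (SD, n = 6) against 861 RPM, with a log2 difference of 0.28 (limma, 95% interval -1.05 to 1.61, adjusted p = 0.832). miR-23b-3p averaged 591 ± 222 RPM (SD, n = 6) against 430 RPM, with a log2 difference of 0.37 (limma, 95% interval -1.47 to 2.21, adjusted p = 0.834). miR-27b-5p averaged 59.3 ± 94.9 RPM (SD, n = 6) against 430 RPM, 7 reads against 2. Its log2 difference of -4.06 (limma, 95% interval -9.02 to 0.90, adjusted p = 0.673) follows the pseudocount, as the X1-probe libraries with 0 reads enter at 10 RPM. It ran from -6.27 at a pseudocount of 1 RPM to -1.92 at 100 RPM.

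For 4 of the 6 members all X1-probe libraries lay on one side of the scrambled value, miR-27a-3p above it and miR-27b-3p, miR-24-3p and miR-27b-5p below it. The same held for 33.9% of the 242 tested microRNAs, 11.2% above and 22.7% below. With 1 scrambled library that count is a description.

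**Figure D2:**
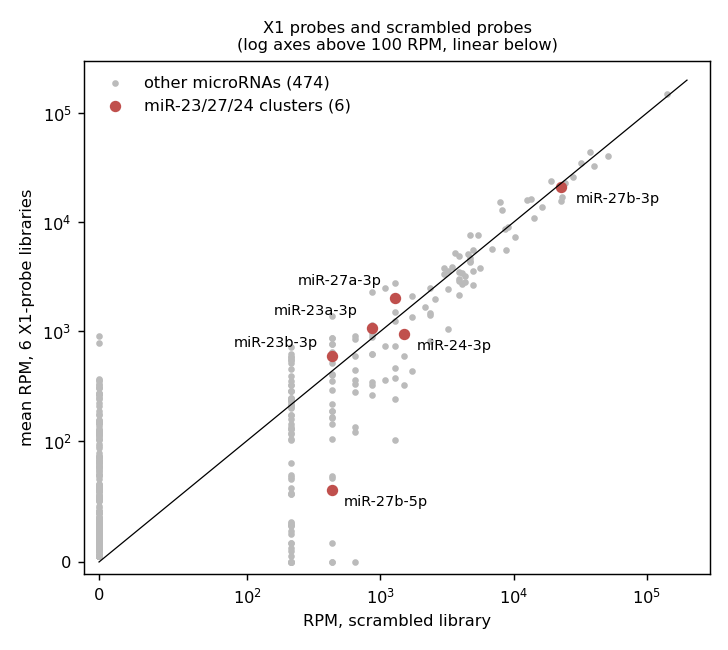
Mean RPM of the 6 X1-probe libraries on the vertical axis against RPM of the scrambled library on the horizontal axis for all 480 names, on axes that are logarithmic above 100 RPM and linear below; red points are the 6 members and the line marks equal values. miR-27b-3p lies almost on the line at 21119 against 22810 RPM, while miR-27b-5p lies below it at 59.3 against 430 RPM.

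The ODD and EVEN probes were directed at the same transcript, and the second comparison asked whether the members differed between them. None passed. Of the 242 tested microRNAs 0.413% were called by limma, 1 in all, and 4.55% had an unadjusted p under 0.05, against 0 of the 6 members in both counts. The median log2 difference was 0.048 for the members, 3 above 0 and 3 below, and 0.072 for all tested.

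miR-24-3p showed the largest separation of the members. It averaged 1197 ± 40.3 RPM with ODD probes and 703 ± 321 RPM with EVEN probes (n = 3 each, SD), 59 reads against 17. The log2 difference was 0.86 with an SE of 0.51 (limma, 95% interval -0.18 to 1.89, adjusted p = 0.909). Among the members it alone had no overlap between the probe sets, which held for 7.02% of the tested microRNAs, 3.72% with ODD higher and 3.31% with ODD lower. Its scrambled value of 1506 RPM was above both probe sets. Over the X1-probe libraries the chi-square of its reads per degree of freedom was 1.57, against 0.541 to 1.16 for the other five members. Counting error alone gives about 1 on average, with wide scatter over so few libraries. Whether 1.57 exceeds counting error was not tested.

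The paralogs gave narrower differences. miR-27b-3p averaged 20308 ± 1340 RPM with the ODD set and 21931 ± 856 RPM with EVEN probes (n = 3 each, SD), a log2 difference of -0.11 (limma, 95% interval -0.55 to 0.33, adjusted p = 0.981). miR-27a-3p averaged 1886 ± 505 RPM with the ODD set and 2185 ± 344 RPM with EVEN probes (n = 3 each, SD), a log2 difference of -0.23 (limma, 95% interval -1.0 to 0.54, adjusted p = 0.981). Both miR-27 paralogs were thus lower with ODD probes when libraries were averaged with equal weight. The gap was smaller than the SD of either probe set for miR-27a-3p and larger than both SDs for miR-27b-3p, whose ODD and EVEN libraries overlapped.

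miR-23a-3p averaged 1131 ± 151 RPM with the ODD set and 1034 ± 443 RPM with EVEN probes (n = 3 each, SD), a log2 difference of 0.21 (limma, 95% interval -0.80 to 1.21, adjusted p = 0.981). Without EVEN replicate 3, which has 3 of its reads, the difference was -0.10. miR-23b-3p averaged 678 ± 309 RPM with the ODD set and 503 ± 72.8 RPM with EVEN probes (n = 3 each, SD), a log2 difference of 0.32 (limma, 95% interval -1.07 to 1.71, adjusted p = 0.981). Without ODD replicate 3, where it has 4 reads, the difference was 0.0020. miR-27b-5p, with 5 ODD and 2 EVEN reads, had a log2 difference of -0.19 (limma, 95% interval -3.94 to 3.56, adjusted p = 0.982). Its sign turned without ODD replicate 1 or ODD replicate 3, to 0.46 each time.

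**Figure D3:**
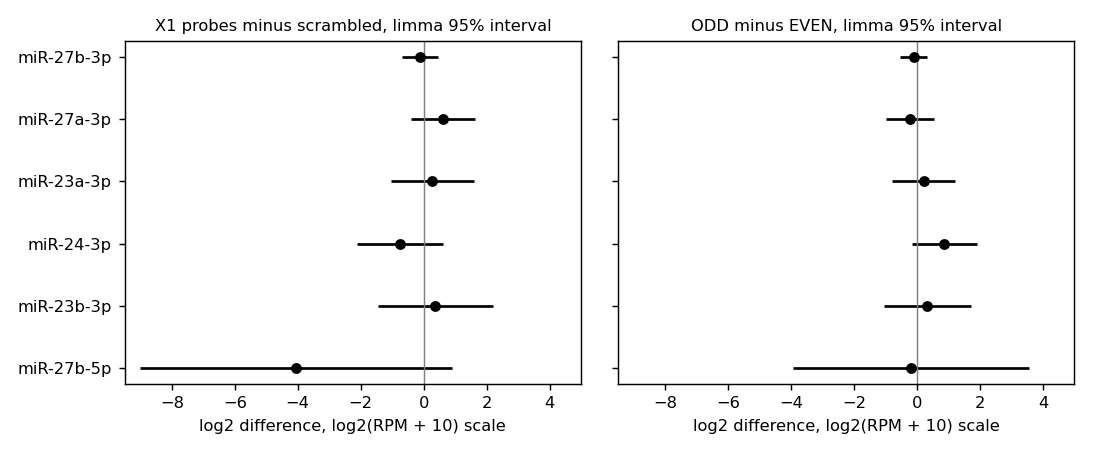
Log2 differences on the log2(RPM + 10) scale with limma 95% intervals as bars, X1 probes minus scrambled on the left and ODD minus EVEN on the right, 1 line per member. Every interval holds 0, from the narrow one of miR-27b-3p (-0.70 to 0.47 on the left) to the wide one of miR-27b-5p (-9.02 to 0.90).

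Shares within a pair do not depend on the library total, so they were compared as well. miR-23a-3p held 76.5%, 58.6% and 55.6% of the miR-23 pair's reads in ODD replicates 1 to 3, 73.7%, 63.6% and 60% in EVEN replicates 1 to 3, and 66.7% of the scrambled reads. The average was 63.5% ± 11.3 with ODD and 65.8% ± 7.09 with EVEN probes (n = 3 each, SD, exact two-sided permutation p = 0.7). The pooled X1-probe share was 63.8% of 130 reads (exact 95% interval 55% to 72.1%). That of the scrambled library rests on 6 reads (exact 95% interval 22.3% to 95.7%). The a paralog held the larger share in every library, although 6 of the 7 intervals also held an even split of 50%.

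miR-27a-3p held 7.27%, 10.6% and 7.45% of the miR-27 pair's reads in ODD replicates 1 to 3, 8.02%, 9.07% and 10% in EVEN replicates 1 to 3, and 5.36% of the scrambled reads. The average was 8.45% ± 1.89 with ODD and 9.03% ± 0.991 with EVEN probes (n = 3 each, SD, exact two-sided permutation p = 0.7). Pooled reads gave the reverse order, 9.72% with ODD and 8.91% with EVEN probes. The pooled X1-probe share was 9.41% of 1817 reads (exact 95% interval 8.11% to 10.8%), and the scrambled share was 6 of 112 reads (exact 95% interval 1.99% to 11.3%). The scrambled value was the lowest of the 7, and its interval holds the whole X1-probe interval.

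miR-27b-5p held 0.423% of the reads of both miR-27b arms over the X1-probe libraries, 7 of 1653 (exact 95% interval 0.170% to 0.871%), and 1.85% in the scrambled library, 2 of 108 (exact 95% interval 0.225% to 6.53%). The passenger arm thus stayed a small share under all probes, and the intervals overlapped. Its share averaged 0.226% ± 0.392 with ODD and 0.338% ± 0.586 with EVEN probes (n = 3 each, SD, exact two-sided permutation p = 1). Pooled reads gave the reverse order, 0.487% with ODD and 0.319% with EVEN probes. The smallest p that 3 against 3 allows is 0.1. Adjusted over the 3 pairs compared, all p-values were 1.

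**Figure D4:**
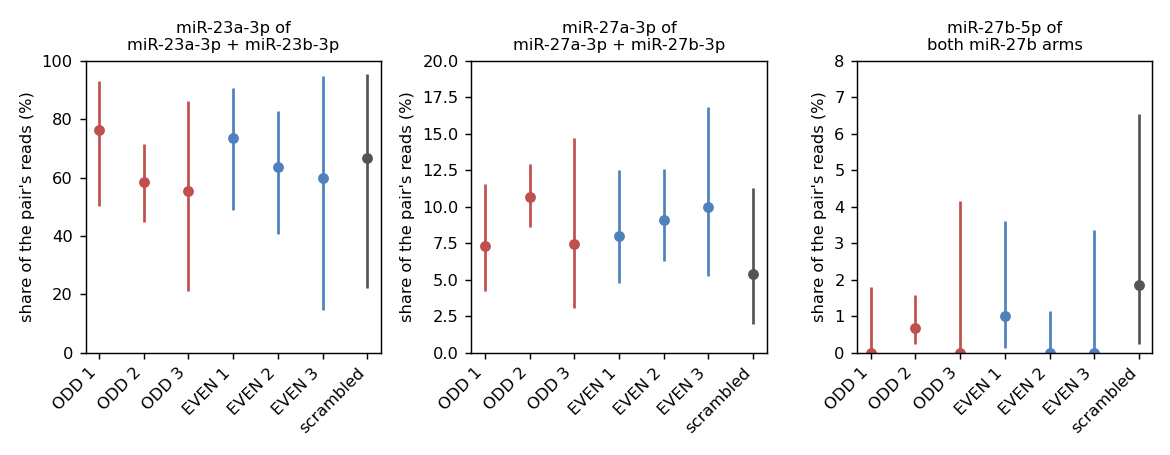
Share of a pair's reads in percent in each library, with exact 95% intervals as bars, red for ODD, blue for EVEN and grey for scrambled; the panels have different vertical scales, each from 0. The miR-23a-3p share lies between 55.6% and 76.5%, the miR-27a-3p share between 5.36% and 10.6%, and the miR-27b-5p share between 0% and 1.85%.

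Of the 6 other arms and relatives of these hairpins, 3 were measured, all at low level. miR-27a-5p, the passenger of miR-27a-3p, had 7 ODD, 8 EVEN and 0 scrambled reads. miR-23a-5p had 2, 2 and 1 reads in the same order, and miR-24-2-5p had 1, 2 and 0. miR-24-2-5p is the 5p arm of the a cluster's hairpin alone, unlike miR-24-3p. The other 3 looked for, miR-23b-5p, miR-24-1-5p and miR-23c, have no row in the deposited table and so were not analysed here. None of the 3 passed in either comparison, with adjusted p from 0.673 to 0.692 for X1 probes against scrambled and 0.979 for ODD against EVEN by limma.

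miR-128-3p, a microRNA abundant in brain, was added because bases 3 to 9 of miR-27b-3p are the same as its seed, so the targets of both can overlap. It is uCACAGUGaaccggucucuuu, with the seed in capitals. ODD replicates 1 to 3 held 1, 15 and 2 of its reads, EVEN replicates 1 to 3 held 1, 4 and 1, and the scrambled library held 0. At its X1-probe mean of 267 ± 164 RPM (SD, n = 6), 1.24 scrambled reads would be counted, and the scrambled floor of 3 reads is 646 RPM, so no fold is given. It did not pass against scrambled probes (limma, adjusted p = 0.426) or between ODD and EVEN probes (limma, adjusted p = 0.981).

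Likeness of profile was measured as the root mean square difference of log2(RPM + 10) over the 7 libraries, each profile centred on its own mean, among the 68 microRNAs with at least 1000 RPM on average. The profile nearest to miR-27b-3p was that of miR-92a-3p (0.14, against a median of 0.35 over the candidates), followed by miR-10b-5p and miR-30a-5p (0.18 each). The SD of the miR-27b-3p profile itself was 0.096, below each of these distances. A flat profile would thus be nearer, and no shared pattern is shown. Nearest to miR-27a-3p were miR-196a-5p (0.21), miR-5701 (0.24) and miR-146a-5p (0.25), with a median of 0.50. Its paralog miR-27b-3p was not among these. Nearest to miR-23a-3p were miR-26a-5p (0.20), let-7a-5p (0.25) and miR-21-5p (0.27), with a median of 0.54. Nearest to miR-23b-3p were miR-22-3p (0.28), miR-21-5p (0.34) and miR-31-5p (0.36), with a median of 0.51. Nearest to miR-24-3p were miR-619-5p, miR-222-3p and miR-125b-5p (0.37 to 0.38), with a median of 0.67. No member was among the 3 nearest of another member (miR-23b-3p, under 1000 RPM, was no candidate), and all profiles share the libraries' depth and totals.

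The label of the cells was set against markers. Of 6 pigment cell and melanoma microRNAs 3 were measured, summing to 6930 to 7903 RPM in the ODD, 6672 to 9020 RPM in the EVEN and 5595 RPM in the scrambled libraries. Most of this was miR-146a-5p and miR-204-5p, while miR-509-3p had 6 reads in all. No reads are listed for miR-211-5p, miR-514a-3p and miR-508-3p, which have no row in the deposited table. The sum therefore does not test the label of the cells. Blood microRNAs (5 of 7 measured) summed to 247 to 507 RPM with ODD, 0 to 629 RPM with EVEN and 215 RPM with scrambled probes. Epithelial ones (3 of 6 measured) reached at most 494 RPM, miR-126-3p of endothelium had 2 reads, and the muscle list (2 of 3 measured) reached at most 741 RPM. The neuron list (2 of 2 measured, almost all miR-9-5p) summed to 92.4 to 494 RPM with ODD, 345 to 430 RPM with EVEN and 1291 RPM with scrambled probes. Their part in the members' values was not tested.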

How the data were processed

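Small RNA reads of 7 captures were used as the authors deposited them, as RPM for 498 rows of hairpin and mature name. The tools named in the submitters' processing notes are CASAVA 1.8 and cutadapt 1.2.1. How reads were aligned and counted, and on which annotation and build, is not given in the sources used here. RPM as the unit was taken from the values, since each deposited column sums to 1e+06. All values (100%) were whole multiples of 1 read within 1e-06 reads, which gave the reads and depths. Of the 480 names 17 had several rows (35 in all), and the row with the most RPM was kept; each member had 1 row.

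Groups came from the titles. limma 3.58.1 in R 4.3.3 was fitted on log2(RPM + 10) with a mean per group, an eBayes trend, Benjamini-Hochberg adjustment over 242 microRNAs, two-sided, on 4 residual and 28.6 prior degrees of freedom. The filter was 10 RPM in 3 libraries. Permutation tests and binomial intervals used scipy 1.17.1. The fit was tested on simulated reads with counting error alone. Changes of several fold were put only into microRNAs less abundant than miR-27b-3p. A minority of the changed microRNAs was called, none with the wrong sign. For X1 probes against scrambled the share of false calls was above the threshold of 0.05. All 6 members, the other arms of their hairpins, miR-128-3p and the 3 nearest profiles per member were named. Members, lists, tests and alternatives were chosen with earlier results of these data known.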

Additional observations from a re-analysis of the deposited data

How the results depend on the processing

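No member was called in either comparison under any of 13 other settings or with voom weights on recovered reads, an alternative chosen after seeing the data. Over these, 158 of 164 member differences kept their direction, 5 turned and 1 was 0 (miR-27b-3p for ODD against EVEN under quantile scaling), with adjusted p from 0.469 to 1. Those that turned were miR-27b-3p for X1 probes against scrambled under quantile scaling (0.027) and, for ODD against EVEN, miR-27b-5p with voom (0.12) and when a replicate was left out (-0.94 to 0.46), and miR-23a-3p when a replicate was left out (-0.10 to 0.52). Leaving out 1 replicate moved miR-24-3p between -0.93 and -0.60 for X1 probes against scrambled and between 0.53 and 1.19 for ODD against EVEN. Without ODD replicate 2 or EVEN replicate 1, miR-27b-5p did not pass the filter. The miR-27b-5p share turned on the log2 odds scale (0.066). Leaving out 1 replicate moved the ODD minus EVEN difference in share, in percentage points, between -8.69 and 1.77 for miR-23a-3p (-2.22 with all), above 0 without EVEN replicate 1 or ODD replicate 2 or 3. It ran between -1.67 and 0.013 for miR-27a-3p (-0.58 with all), above 0 without ODD replicate 1, and between -0.34 and 0.23 for miR-27b-5p (-0.11 with all), above 0 without EVEN replicate 1 or ODD replicate 1 or 3.

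Over all microRNAs, the 2 calls for X1 probes against scrambled became 12 with no filter, 1 under quantile scaling, 0 with the replicate block and 1 with voom, and 2 to 3 when a replicate was left out. The 1 call for ODD against EVEN became 0 at a pseudocount of 1, with no filter, over 1 row per name, under quantile scaling and with the block, 3 without the trend, and 0 to 3 when a replicate was left out (0 without ODD replicate 1 or 3, 3 without EVEN replicate 1, 2 without EVEN replicate 2). With no filter the median difference of all microRNAs for X1 probes against scrambled was 0.50 and with voom -0.15, against 0.096. The cause of these moves was not tested. The library labels carry the numbers 9, 10 and 12 for ODD and EVEN replicates 1 to 3, and 12 for the scrambled library. The labels do not say what the numbers stand for, and the replicate block groups libraries by them. Deviations of same-numbered ODD and EVEN libraries had correlations of -0.044, 0.072 and 0.019 over 242 microRNAs. Many of these microRNAs have few reads, so the correlations cannot show whether the numbers mark pairs. The main fit did not pair them. The only scrambled library has the number 12. With the block, its difference from X1 probes therefore rests on ODD and EVEN replicate 3 alone, and replicates 1 and 2 do not enter it. With the replicate block miR-24-3p was -0.40 against scrambled (adjusted p = 0.748 by limma). In the same fit miR-23a-3p was 0.035 and miR-27b-3p -0.048 against scrambled. miR-23b-3p (0.57), miR-27a-3p (0.69) and miR-27b-5p (-5.46) were farther from 0 than without the block. Count models planned on recovered reads were not run. Depth limits the low members, as 1 scrambled read is worth 215 RPM.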
